A study of Mus musculus with 4 samples.

Results

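The genes described here are 9 markers of primitive and visceral endoderm, the first extraembryonic endoderm of the mouse embryo: *Gata4*, *Gata6*, *Sox17*, *Sox7*, *Foxa2*, *Hnf4a*, *Dab2*, *Pdgfra* and *Afp*. They were chosen by name, for their known use as markers, and all 9 were found among the 22718 genes of the expression tables. RNA-seq compared 1 library of wild type C57BL/6 mouse embryonic stem (ES) cells with 1 library of *Prep1*-/- C57BL/6 ES cells (the KO2 line), both grown undifferentiated on gelatin with leukemia inhibitory factor. Each genotype is represented by 1 line, so line and genotype cannot be told apart. ChIP-seq with the Prep1 antibody N-15 was done in 1 sample of wild type ES cells, and its 3902 peaks were used for the positions of Prep1 binding. Its strain is labelled C57BL/6, whereas its protocol names the R1 line. Prep1 is a TALE homeodomain transcription factor that binds DNA together with Pbx proteins. No difference between the libraries can be checked against replicates, and no p-value is given. They are called the WT library and the library labelled KO.

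Primitive endoderm arises from the inner cell mass of the blastocyst next to the pluripotent epiblast, and Fgf4 signalling through Fgf receptors and Mapk drives the choice. *Gata6* and *Pdgfra* mark the cells early, *Sox17*, *Gata4* and *Sox7* follow, and the layer then forms visceral endoderm, which transports nutrients and secretes plasma proteins such as Afp, and parietal endoderm, which lays down basement membrane. ES cell cultures are known to hold a minority of cells that express such genes. In bulk RNA, fewer cells of a type and less RNA per cell cannot be told apart, and this holds for every level below.

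The sequences searched for the Prep1 motif were those of the peaks nearest to the 9 genes and of their own start sites. Only *Sox7* and *Pdgfra* had a Prep1 peak within 20 kb of the start of the gene. Both peaks held the motif TGANTGACA, the first letters of the decamer bound by Prep1 with Pbx. The nearest peaks of *Hnf4a* and *Dab2*, which lie farther away, also held it. Among the windows around the annotated transcript starts, an internal start of *Hnf4a* was the only one with a match. The stretches below are mm9 sequence, plus strand, with the match in capitals. The matches in the *Pdgfra* peak and at *Hnf4a* lie on the minus strand and are printed as their reverse complement.
Sox7 peak, chr14:64551935-64552234: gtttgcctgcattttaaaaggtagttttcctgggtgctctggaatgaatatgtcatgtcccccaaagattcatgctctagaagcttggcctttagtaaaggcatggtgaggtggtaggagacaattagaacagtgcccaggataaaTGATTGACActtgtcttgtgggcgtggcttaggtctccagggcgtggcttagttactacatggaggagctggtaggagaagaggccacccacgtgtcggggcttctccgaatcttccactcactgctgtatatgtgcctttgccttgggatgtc
Pdgfra peak, chr5:75539321-75539620: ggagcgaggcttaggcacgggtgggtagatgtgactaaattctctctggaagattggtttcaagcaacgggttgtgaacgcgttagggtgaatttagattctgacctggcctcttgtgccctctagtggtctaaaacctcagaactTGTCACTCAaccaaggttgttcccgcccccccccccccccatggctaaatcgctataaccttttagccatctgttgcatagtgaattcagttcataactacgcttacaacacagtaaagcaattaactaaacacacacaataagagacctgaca
Hnf4a internal start, chr2:163372712-163372780: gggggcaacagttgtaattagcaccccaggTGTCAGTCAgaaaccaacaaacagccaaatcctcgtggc

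For *Gata4*, the most strongly expressed of the 9 in wild type cells, the RT-qPCR primers of the study show which part of the transcript such a measurement reads. The primers are given 5′ to 3′ and in lower case throughout.
Gata4 forward primer, chr14:63822576-63822595, minus strand: ctgtgccaactgccagacta
Gata4 reverse primer, chr14:63822147-63822166, plus strand: cctgctggcgtcttagattt
Both primers matched 4 of the 7 annotated coding transcripts of *Gata4* and gave a product of 189 bases within the coding sequence. The read counts below are per gene and cover all transcripts.

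For each gene the tables hold a read count and an RPKM value, which scales the reads by gene length and library size. The counts summed to 29596294 reads in the WT library and 25717811 in the library labelled KO. The methods of the study give far fewer reads per sample, and the sources used here do not settle why. Dividing the RPKM in the library labelled KO by that in the WT library gives the KO/WT ratio. The interval given with a ratio is an exact 95% Clopper-Pearson interval from both read counts. It covers counting error only and compares these libraries, not the genotypes. It would be too narrow if a fragment was counted more than once. The median ratio was 0.955 over 13218 genes that exceeded an RPKM of 1 in both. The targeted gene *Pknox1*, which encodes Prep1, kept 332 reads (RPKM 5.78) against 505 (RPKM 7.85) in the wild type, a ratio of 0.736 (0.638 to 0.846). Counts per gene do not show which exons were read, so the library is called by its label throughout, and each direction below rests on that label. The ES cell genes *Pou5f1*, *Nanog* and *Sox2* were strongly expressed in both libraries, with wild type RPKM of 323, 66.4 and 101.

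Among the 9 genes, 7 were lower in the library labelled KO, with ratios from 0.242 (*Hnf4a*) to 0.667 (*Dab2*), and only *Sox7* and *Afp* were higher. The highest wild type level, that of *Gata4*, was an RPKM of 4.61.

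*Gata4* and *Gata6* encode zinc finger transcription factors that can each drive ES cells into primitive endoderm. *Gata4* (ENSMUSG00000021944, mm9 chromosome 14, 63817759 to 63890529, minus strand) had 1156 reads (RPKM 4.61) in the WT library against 350 (RPKM 1.56) in the library labelled KO. The ratio was 0.339 (0.300 to 0.382), and 1.23% of the genes with at least 20 reads in the libraries together had a lower one. *Gata6* (ENSMUSG00000005836, chromosome 18, 11052508 to 11085633, plus strand) had 107 reads (RPKM 1.17) and 43 reads (RPKM 0.534), a ratio of 0.456 (0.308 to 0.646). The intervals of these ratios overlapped, so the GATA factors were lower by amounts that counting error does not separate. At its 5′ end *Gata6* overlaps the antisense gene 1010001N08Rik, and reads of the pair cannot be told apart where the counting did not use strand.

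*Sox17* and *Sox7* belong to the SoxF group of HMG box factors, which are expressed in the endoderm of the blastocyst and in endothelium. They went in opposite directions. *Sox17* (chromosome 1, 4481009 to 4486494, minus strand) had 49 reads (RPKM 0.301) in the WT library against 18 (RPKM 0.128) in the library labelled KO, a ratio of 0.425 (0.225 to 0.718). *Sox7* (chromosome 14, 64562511 to 64569569, plus strand) had 119 reads (RPKM 1.16) and 148 reads (RPKM 1.61). Its ratio was 1.39 (1.09 to 1.79), and its interval lay apart from those of all 7 lowered genes. Of the genes with at least 20 reads, 91.0% had a lower ratio than *Sox7*.

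*Foxa2*, a forkhead factor, and *Hnf4a*, a nuclear receptor, act in visceral endoderm, where *Hnf4a* is needed for the plasma protein genes. *Foxa2* (chromosome 2, 147868613 to 147872705, minus strand) had 84 reads (RPKM 0.454) in the WT library against 39 (RPKM 0.239) in the library labelled KO, a ratio of 0.526 (0.346 to 0.768). *Hnf4a* (chromosome 2, 163332544 to 163398646, plus strand) had 59 reads (RPKM 0.178) and 12 reads (RPKM 0.0431). Its ratio of 0.242 (0.111 to 0.428) was the lowest of the 9, and 0.475% of the genes with at least 20 reads had a lower one. Its interval overlapped that of every other lowered gene except *Dab2*. *Hnf4a* shares its span with the antisense gene 0610008F07Rik and with a U6 gene, neither of which is in the expression tables.

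*Dab2* encodes an endocytic adaptor that carries megalin (*Lrp2*) cargo in endoderm and is needed for the layer to sort to the surface. *Dab2* (chromosome 15, 6249788 to 6390712, plus strand) had 356 reads (RPKM 2.92) in the WT library against 212 (RPKM 1.95) in the library labelled KO. Its ratio of 0.667 (0.559 to 0.791) was nearest to 1 of the lowered genes and lay apart from that of *Gata4* by intervals. *Dab2* spans the antisense gene Gm16311 and a second annotated *Dab2* entry that are not in the expression tables. *Pdgfra*, the platelet-derived growth factor receptor found early on primitive endoderm (chromosome 5, 75548316 to 75594229, plus strand), had 38 reads (RPKM 0.225) and 10 reads (RPKM 0.0709), a ratio of 0.315 (0.131 to 0.602). *Afp*, which encodes the alpha-fetoprotein secreted by visceral endoderm (chromosome 5, 90919740 to 90937933, plus strand), was nearly absent, with 1 read (RPKM 0.0490) and 6 reads (RPKM 0.192). Its RPKM ratio was 3.91. Its read counts without the read that the RPKM adds gave a ratio of 6.71 with an interval from 0.814 to 309, which covers both directions.

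**Figure D1:**
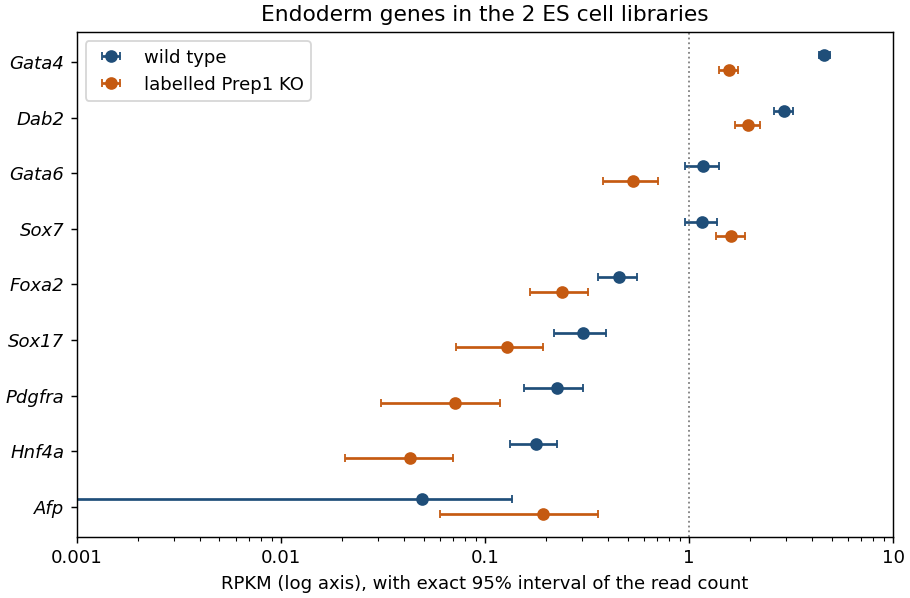
RPKM (log axis) of the 9 endoderm genes in the WT library (blue) and the library labelled Prep1 KO (orange), with exact 95% intervals of the read count as bars and a dotted line at RPKM 1. The interval of *Afp* in the WT library (1 read) runs past the left edge. *Gata4* goes from 4.61 to 1.56, while *Sox7* goes from 1.16 to 1.61.

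A call of lower needed a ratio below 0.7 and a WT RPKM of more than 1, and a call of higher needed a ratio above 1.5 and more than 1 in the library labelled KO. The thresholds follow the methods of the study. Only 4 of the 9 genes exceeded an RPKM of 1 in at least one library. Of these, *Gata4*, *Gata6* and *Dab2* were called lower and 0 were called higher, where 13.3% of the 14254 genes that passed this filter were called lower and 6.91% higher. *Dab2* was close to the threshold, and its ratio became 0.702 with the libraries scaled by the upper quartile of their read counts. The filter left out 5 genes, of which *Sox17*, *Foxa2*, *Hnf4a* and *Pdgfra* had ratios below 0.7.

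With a filter that does not depend on direction, at least 20 reads in the libraries together, 8 of the 9 genes remained and *Afp* did not. The interval lay below 1 for 7 of the 8 and above 1 for *Sox7*. Among all 15588 genes with as many reads, the interval lay below 1 for 36% and above 1 for 20.6%. A ratio below 0.7 was seen for the same 7 of 8 genes, against 15.2% of all genes with at least 20 reads and 20.8% of the 9834 genes with 20 to 2000 reads, the range in which these 8 genes lie. The median ratio of the 8 was 0.440. On the log2 scale with 0.1 added to each RPKM, the median over all 9 was −0.82, against −0.02 over all genes with finite values. That scale understates the differences of the genes with the lowest levels.

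**Figure D2:**
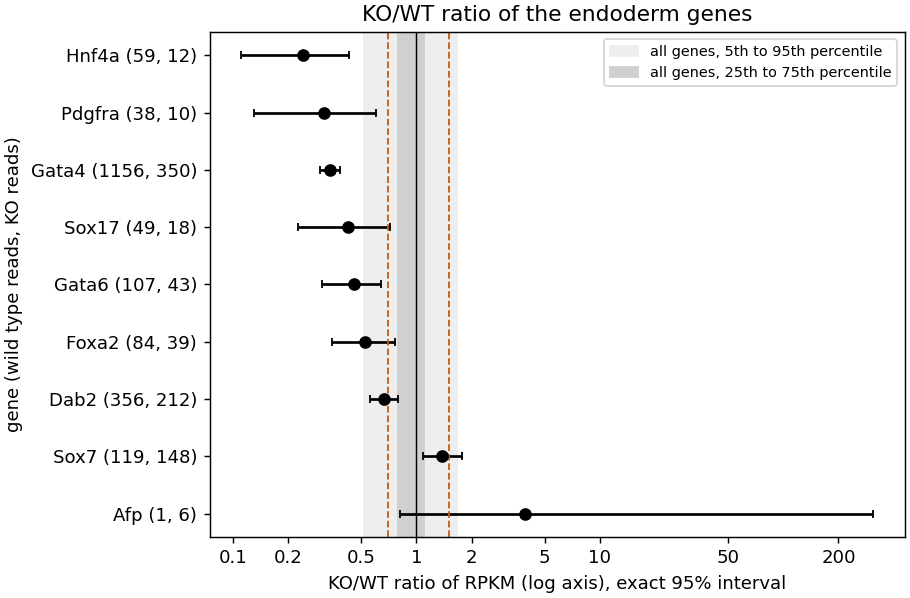
KO/WT ratio of RPKM (log axis) of each endoderm gene with its exact 95% interval, and with the reads of both libraries beside its name. Grey bands give the middle 50% and middle 90% of all genes with at least 20 reads, and dashed lines the thresholds of 0.7 and 1.5. For *Hnf4a*, *Pdgfra*, *Gata4*, *Sox17* and *Gata6* the ratio lies below the 5th percentile of all genes (0.522), and *Sox7* lies between 1 and 1.5.

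The 9 genes together had 1969 reads in the WT library and 838 in the library labelled KO and a summed RPKM of 11.1 and 6.33. *Gata4* held 58.7% of these reads in the WT library and 41.8% in the other, so the sum describes *Gata4* more than the rest. The order of the levels also differed. In the WT library *Gata4* was highest in RPKM, followed by *Dab2*, with intervals apart. *Gata6* and *Sox7* came next with overlapping intervals, and *Foxa2*, *Sox17*, *Pdgfra*, *Hnf4a* and *Afp* followed, where each overlapped the next. In the library labelled KO the order began with *Dab2* (1.95), *Sox7* (1.61) and *Gata4* (1.56), of which neighbours were not separated by their intervals. *Gata6* stood below them and above *Foxa2*, with intervals apart on both sides. *Foxa2*, *Afp*, *Sox17*, *Pdgfra* and *Hnf4a* closed the order without a gap between neighbours.

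Relatives of the 9 genes were examined next. Of 11 paralogs, 6 passed the RPKM filter, and 4 of these were called lower and 0 higher, beside 13.3% and 6.91% of all genes that passed it. *Gata2*, a factor of blood progenitors and trophoblast, had 641 and 307 reads in the WT library and the library labelled KO (ratio 0.536, 0.466 to 0.615). *Gata3*, a trophectoderm factor, had 385 and 256 reads (0.744, 0.632 to 0.873). *Gata1*, the erythroid factor, had 44 and 43 reads, with a ratio of 1.09 and an interval that spans 1. *Gata5* had only 9 and 6 reads. Among the GATA genes with at least 20 reads, the interval of *Gata4* lay below that of each of these 3 paralogs.

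*Sox18*, the remaining SoxF gene, had 196 and 111 reads (ratio 0.636, 0.497 to 0.803), and so lay on the side of *Sox17*, not of *Sox7*. The forkhead paralogs were also lower, with 57 and 29 reads for *Foxa1* (0.578, 0.351 to 0.905) and 202 and 87 for *Foxa3* (0.485, 0.370 to 0.622). *Foxa3* (wild type RPKM 3.23) was more strongly expressed than *Foxa2* (0.454). *Hnf4g* had 0 reads in both libraries. *Dab1*, a neuronal adaptor of reelin signalling, had 629 and 408 reads (0.726, 0.639 to 0.823), and *Pdgfrb* had 160 and 116 (0.813, 0.633 to 1.04). *Alb*, which encodes albumin and lies next to *Afp*, had 281 and 123 reads and a ratio of 0.492 (0.393 to 0.607).

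Of the 4 platelet-derived growth factor ligands, *Pdgfa*, *Pdgfb* and *Pdgfc* had higher RPKM than the receptor gene *Pdgfra* in both libraries. *Pdgfa* had 4117 and 2296 reads (wild type RPKM 60.4, ratio 0.624, 0.592 to 0.656) and *Pdgfb* had 1074 and 643 (0.670, 0.606 to 0.739). *Pdgfc* had 542 and 561 (1.16, 1.03 to 1.30), and *Pdgfd*, below *Pdgfra* in the WT library with an RPKM of 0.127, had 18 and 15. *Pdgfa* and *Pdgfb* were thus called lower, as the interval of the receptor also lay below 1, while the interval of *Pdgfc* lay above 1. Of the cofactors of GATA proteins, *Zfpm1* (Fog1) had 1731 and 951 reads (0.615, 0.567 to 0.665) and *Zfpm2* (Fog2) had 133 and 175 (1.47, 1.17 to 1.86). The endocytic receptors served by Dab2 differed from each other. *Lrp2* (megalin) had 5633 and 4569 reads (0.907, 0.872 to 0.943), whereas *Cubn* (cubilin) had 124 and 36 (0.331, 0.217 to 0.474). In this list of 8 genes 5 passed the RPKM filter, and 3 of them were called lower and 0 higher. Of all genes that passed it, 13.3% were called lower and 6.91% higher.

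A list of 20 visceral endoderm genes shares *Alb*, *Foxa1*, *Lrp2* and *Cubn* with the lists above, so these are counted again. Of the 20 genes, 9 passed the RPKM filter, and 5 of these were called lower and 0 higher. Of all genes that passed it, 13.3% were called lower. Among the 18 with at least 20 reads the interval lay below 1 for 14 and above 1 for 0, against 36% and 20.6% of all genes, and the median log2 ratio of the list was −0.66. The genes called lower encode secreted or absorptive proteins of the yolk sac. They were *Apoa1* (373 and 176 reads, ratio 0.529), *Ttr* (57 and 21 reads, 0.424), *Alb*, *Amn* (87 and 46 reads, 0.597), whose product anchors cubilin, and *Rbp4* (70 and 40 reads, 0.646). The most abundant gene, *Apoe*, had 26641 and 18474 reads (0.775), and *Trf*, encoding transferrin, had 694 and 517 (0.833). *Apoe* made up most of the summed RPKM of the list, which was 965 in the WT library and 742 in the library labelled KO. ES cells themselves express *Apoe*, so that sum is not a measure of endoderm.

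Genes of anterior visceral endoderm, the signalling centre that patterns the head, did not share one direction. *Lhx1* had 112 and 11 reads (ratio 0.119), which is below every one of the 9 genes. *Otx2*, also a factor of the epiblast, had 220 and 434 (2.20, 1.87 to 2.61). *Lefty1* (0.936) and *Hhex* (0.907) were near the median of all genes, and *Cer1* had 0 reads in both libraries. Of the 3 genes of this list that passed the RPKM filter 0 were called lower and 1 higher, beside 13.3% and 6.91% of all genes.

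Parietal endoderm genes were split. *Col4a1* had 9873 and 4177 reads (0.473) and *Col4a2*, its partner in type IV collagen, had 7265 and 3041 (0.468). *Pth1r* (181 and 81 reads, 0.504) and *Snai1* (536 and 286 reads, 0.598) were also called lower. The laminin and nidogen genes, which build the same basement membrane, were not called. Their ratios were 1.15 for *Lamc1*, 1.12 for *Lama1* and *Nid1*, and 0.831 (0.799 to 0.865) for *Lamb1*, whose interval lay below 1. *Sparc*, which encodes a matrix protein that binds collagen, had a ratio of 0.944. In all, 4 of the 10 genes that passed the RPKM filter were called lower and 0 higher, beside 13.3% and 6.91% of all genes. Over the 11 genes of the list the intervals lay below 1 for 6 and above 1 for 3. The shares over all genes with at least 20 reads were 36% and 20.6%. *Col4a1*, *Col4a2* and *Zfpm1* lie on chromosome 8, whose median ratio was 0.779. None of the 9 genes lies there, and the medians of their own chromosomes ran from 0.929 (chromosome 15) to 1.04 (chromosome 1).

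The Fgf and Mapk genes that direct cells to primitive endoderm had a median log2 ratio of 0.06. Of the 10 genes 0 were called lower and 1 higher, beside 13.3% and 6.91% of all genes that passed the RPKM filter. *Fgf4*, the ligand made by epiblast, had a ratio of 1.22, *Fgfr1* 0.708, *Fgfr2* 1.58 and *Grb2* 1.21. *Fgfr2*, the receptor linked to primitive endoderm, was thus higher in the library where the endoderm genes were lower. *Fgfr1* lay just above the threshold for a lower call, and is on chromosome 8 as well. By RT-qPCR the study reports the other direction, with *Fgf4* lower in *Prep1*-/- ES cells and *Fgfr2* lower in *Prep1*-/- cells.

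Marker lists of other cell types also differed between the libraries, and their part in the result was not tested. Of 8 ES cell genes, 7 had an interval above 1 and 1 below, beside 20.6% and 36% of all genes with at least 20 reads. Their median log2 ratio was 0.39 and their summed RPKM 1578 and 1807. *Klf4* had a ratio of 1.58, *Sox2* and *Esrrb* 1.32, *Pou5f1* 1.11 and *Utf1* 1.04. The gene with the interval below 1 was *Zfp42*, with 397 and 284 reads (0.801, 0.684 to 0.934). *Zfp42* also lies on chromosome 8, whose median ratio was 0.779. All 6 mesendoderm genes had ratios below 1, and their summed RPKM was 30.0 and 10.4. Their interval lay below 1 for 4, beside 36% of all genes with at least 20 reads. *T* had 1091 and 242 reads (0.249), *Mixl1* 163 and 43 (0.300), *Eomes* 786 and 354 (0.504) and *Cxcr4* 95 and 81 (0.955). Among 6 trophectoderm genes 4 of the 5 that passed the RPKM filter were called lower, beside 13.3% of all genes that passed it. The summed RPKM of the list was 797 and 475. The keratin genes *Krt18* (539 and 321) and *Krt8* (237 and 146) made up most of it. *Cdx2* had 186 and 36 reads (0.221), and *Hand1* (0.325), *Krt18* (0.595) and *Krt8* (0.614) were also lower. *Gata4*, *Sox17* and *Foxa2* are expressed in mesendoderm or its derivatives as well, so these lists are not independent of the endoderm genes in what they mark.

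Cardiac mesoderm genes, among which *Gata4* acts later, were scarce. Their summed RPKM was 4.29 and 2.55. *Nkx2-5* (106 and 23 reads, 0.251), with an RPKM of 2.32 and 0.581, held most of that sum in the WT library. It was the 1 gene called lower of 2 that passed the RPKM filter, beside 13.3% of all genes. Of the 6 ratios 3 were below 1 and 3 above, among them *Myh6* at 0.659, *Tnnt2* at 1.12 (17 reads in each library) and *Tbx5* at 5.03 (1 and 8 reads), which was named after its values were seen. Blood and endothelium, where *Sox7* and *Sox17* are also expressed, had a summed RPKM of 29.9 and 51.2. There *Pecam1* had a ratio of 1.42, *Kdr* 0.639, *Etv2* 0.983 and *Tal1* 0.839. *Pecam1*, with an RPKM of 22.7 and 32.3, made up most of the summed RPKM in both libraries. The embryonic globin genes *Hba-x* and *Hbb-bh1* had 0 reads in the WT library and 138 and 22 reads in the library labelled KO. Fibroblast genes had a summed RPKM of 24.2 and 30.2 and a median log2 ratio of 0.45. None of the 3 that passed the RPKM filter was called in either direction. Of 6 genes with at least 20 reads the interval lay above 1 for 2 and below 1 for 0, beside 20.6% and 36% of all genes. The ratio was 1.36 for *Col1a1* (976 and 1186 reads), 1.06 for *Col1a2*, 1.04 for *Thy1* and 1.52 for *Col3a1*. *Postn*, named after its values were seen, had 6 and 33 reads (5.43), and *Fap* had 0 reads in both libraries.

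**Figure D3:**
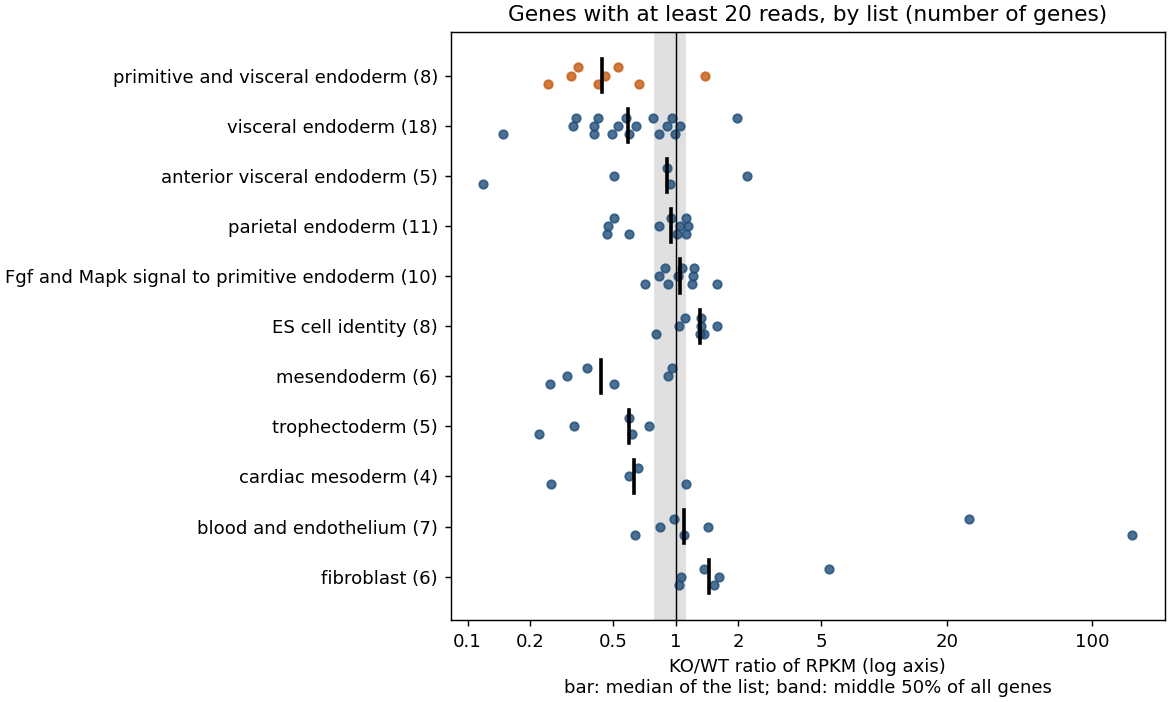
KO/WT ratio of RPKM (log axis) of each gene with at least 20 reads, by list, with the median of the list as a black bar and the middle 50% of all genes as a grey band. The 8 endoderm genes (orange) have a median of 0.440, the visceral endoderm list 0.588, mesendoderm 0.439, trophectoderm 0.595 and ES cell identity 1.31. The 2 dots at the far right of the blood list are the globin genes with 0 wild type reads.

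Genes around the lowered members had higher ratios than the members. Within 500 kb of *Gata4*, 11 genes with at least 20 reads had a median ratio of 1.09, and 0 of them were below 0.7. The nearest on either side were *Neil2* (206 and 189 reads, 1.03), a DNA glycosylase gene, and *Fam167a* (294 and 383 reads, 1.46). The defensin genes *Defb30* and *Defb42* near *Gata4*, named after their values were seen, had 0 wild type reads and 21 and 20 reads in the library labelled KO. The medians were 0.963 over 5 genes around *Gata6*, 1.32 over 5 around *Sox17*, 1.04 over 18 around *Hnf4a* and 0.987 over 3 around *Dab2*. *Foxa2* had 1 such neighbour, *Thbd* (1.01). None of the neighbours of *Gata4*, *Gata6*, *Sox17*, *Foxa2*, *Hnf4a*, *Dab2* or *Pdgfra* had a ratio as low as the member itself.

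Around *Pdgfra* the median over 3 genes was 0.760, with *Chic2* at 0.760 and the receptor gene *Kit*, a close relative of *Pdgfra*, at 1.25. *Ttpal*, the nearest gene downstream of *Hnf4a*, had a ratio of 0.652. *Sox7* lies among genes with a median of 1.11 over 6. The albumin cluster behaved unevenly, with *Afp* itself at 1 and 6 reads, *Alb* at 281 and 123 and *Afm* at 20 and 42 (2.29).

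**Figure D4:**
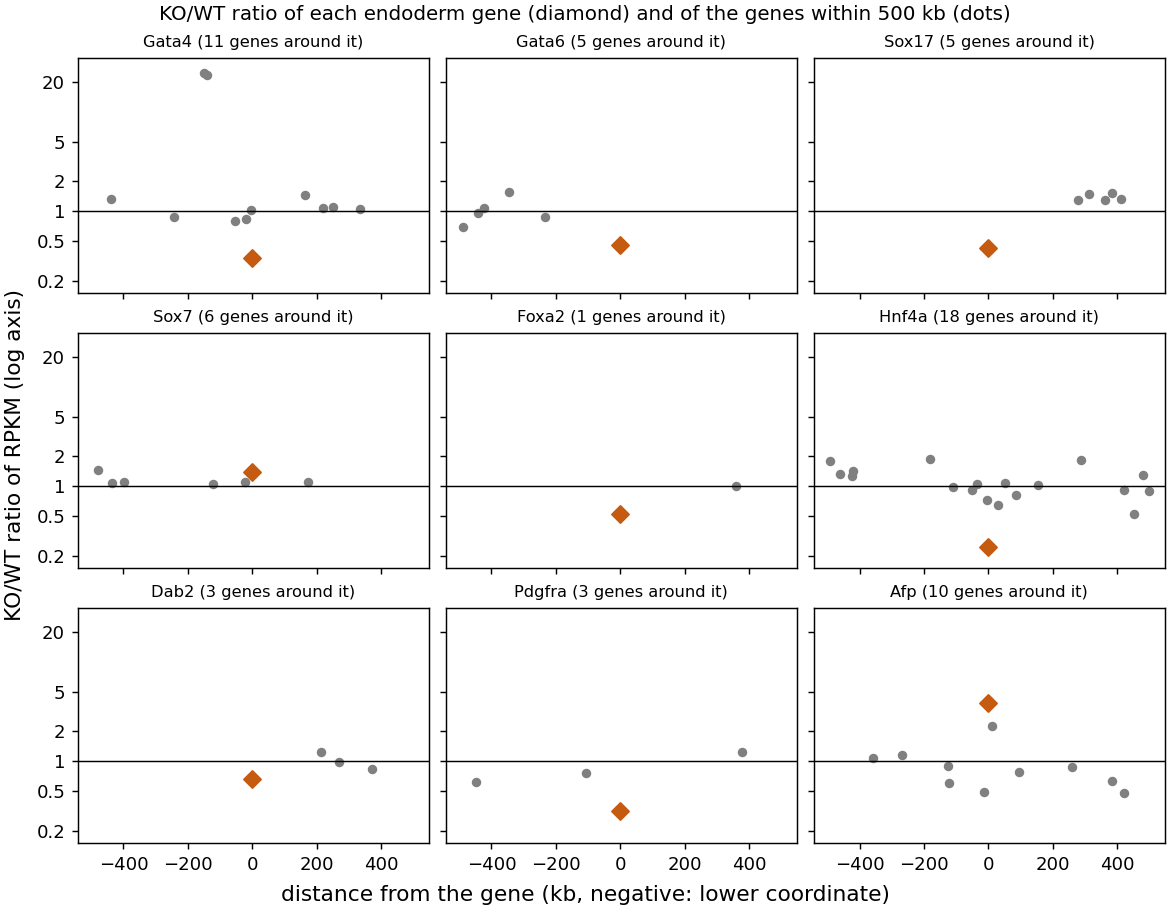
KO/WT ratio of RPKM (log axis) of each endoderm gene (diamond) and of the genes within 500 kb with at least 20 reads (dots), against distance in kb. For the 7 lowered genes the diamond lies below every dot. The highest dots near *Gata4* are the defensin genes with 0 wild type reads.

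Prep1 binding was compared through the distance from the start of each gene to the nearest of the 3902 peaks, whose fold enrichment over input ran from 4 to 336 with a median of 21. None of the 9 genes had a peak within the gene or from 500 bases upstream to 100 bases downstream of its start, where 11.9% and 7.60% of the 21446 annotated genes did. *Pdgfra* had a peak 8.91 kb upstream (chromosome 5, 75539173 to 75539650, fold enrichment 13) and *Sox7* had one 10.4 kb upstream (chromosome 14, 64551881 to 64552316, fold enrichment 18). Both enrichments are below the median of all peaks. These 2 of 9 genes stand beside 18.8% of all genes with a peak within 20 kb.

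The genes with a peak within 20 kb thus differed in direction, with ratios of 0.315 for *Pdgfra* and 1.39 for *Sox7*. *Foxa2* had its nearest peak 67.8 kb upstream and *Hnf4a* 91.1 kb downstream, so that 4 of 9 genes had a peak within 100 kb, as did 45.5% of all genes. *Gata6* was 203 kb from a peak, which lies between the median (121 kb) and the third quartile (354 kb) of all genes. *Gata4* (662 kb, the same peak as that of *Sox7*), *Dab2* (757 kb), *Afp* (1056 kb) and *Sox17* (2592 kb) were beyond the third quartile. The distance of *Gata4*, whose count is the best measured, was thus among the longer ones. Peaks came from 1 ChIP sample, and a site that was not called is not shown to be unbound.

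**Figure D5:**
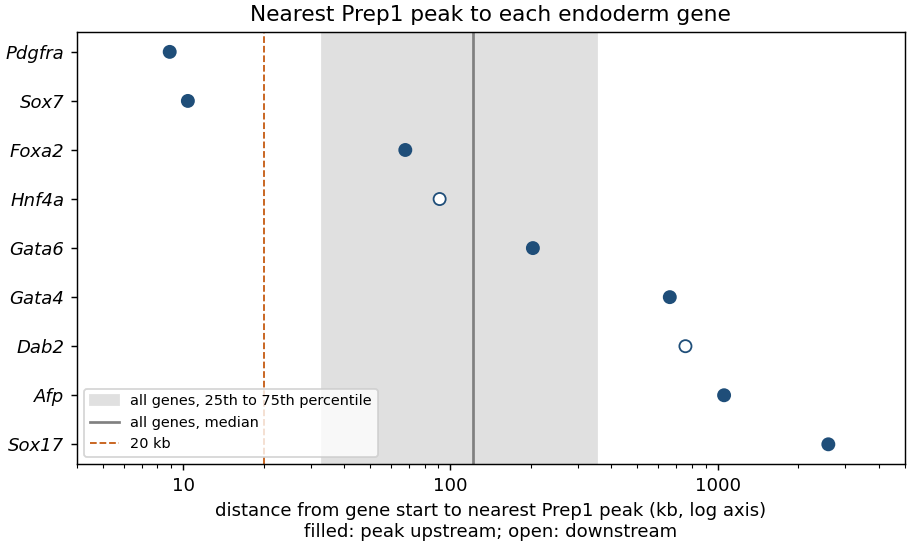
Distance in kb (log axis) from the start of each endoderm gene to the nearest Prep1 peak, upstream (filled) or downstream (open), with the middle 50% of all genes as a grey band, their median as a line and 20 kb as a dashed line. *Pdgfra* and *Sox7* lie left of 20 kb, and *Gata4*, *Dab2*, *Afp* and *Sox17* lie right of the band.

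The motif TGANTGACA, searched on both strands, was present in 34.6% of all peaks and in 2.94% of the windows around all gene starts. The windows reach from 500 bases upstream to 100 bases downstream. In the windows of the 9 gene starts it was present in 0. The *Sox7* peak held TGATTGACA on the plus strand (64552081 to 64552089) and the *Pdgfra* peak TGAGTGACA on the minus strand (75539467 to 75539475), both printed near the opening. With every annotated transcript start included, *Hnf4a* held TGACTGACA upstream of an internal start (minus strand, 163372742 to 163372750), and 5.88% of all genes had a match at any start. The looser motif TGANTGNCA, which includes every match of the first, added *Dab2* at an internal start, and 16.9% of all genes had a match. It was present in 49.1% of all peaks. Both motifs are exact strings, and the study reports its decamer in a larger share of the same peaks by a motif search. A match describes letters in a window and not a bound site. No peak covers the *Hnf4a* or *Dab2* start.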

How the data were processed

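RNA-seq of 1 wild type and 1 *Prep1*-/- ES cell library and the Prep1 ChIP-seq peaks of 1 wild type sample were used. The input sample was not used here. The authors assigned paired reads to Ensembl genes with RSEM, analysed them with DESeq, and deposited whole-number read counts per gene without normalization. They also deposited RPKM, made from the count plus 1, and listed it as Inf for 85 genes, which were left out. ChIP reads were aligned with BWA on mm9 and peaks were called with MACS against input, and the deposited score of a peak is its rounded fold enrichment. The tool names are those of the submitters’ processing notes, and versions are not given in the sources used here.

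KO/WT ratios were taken from RPKM without a pseudocount. The exact Clopper-Pearson 95% interval of the read shares was multiplied by 1.12, the factor that scales count ratios to RPKM ratios. No test across genes was run, since each group has 1 library. Reads are not independent molecules, so intervals cover counting error only. The calculation was checked on simulated data. Gene positions came from GENCODE M1 on NCBIM37 (mm9), where 21446 of the 22718 identifiers matched, and sequence from the same build. *Tfap2c* was not matched, and *Lamb1* and *Pth1r* were matched by identifier. Primer sequences are those of the study.

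The genes, marker lists and tests were chosen with earlier results of these data known. Genes named are all 9 members, *Pknox1*, all paralogs, ligands and partners, of each other list the 4 with the most reads and up to 4 more past the thresholds, and the nearest neighbour on each side with at least 20 reads. A gene that this rule names is not reported here. *Nanog*, *Zfp42*, *Lama1*, *Lamb1*, *Cer1*, *Fap*, *Tbx5* and *Postn* stand outside this rule. Alternatives were 4 other scalings, pseudocounts, RPKM filters, symmetric thresholds, peak windows and motifs. Scripts ran in Python 3.11.15 with scipy 1.17.1 for the intervals, pandas 2.3.3 and numpy 2.4.6 for the tables, and matplotlib 3.10.9 for the plots.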

Additional observations from a re-analysis of the deposited data

How the results depend on the processing

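Of the values that answer a comparison, 36 alternatives left the value within its limits and 7 moved it, and 0 reversed a direction. The median log2 ratio of the 9 genes was −1.12 with a pseudocount of 0.01 and −0.21 with a pseudocount of 1, beside −0.82 with 0.1. The count called lower was 1 (*Gata4*) with a pseudocount of 1 and 7 without the RPKM filter, where 1 gene (*Afp*, 1 and 6 reads) was called higher. *Dab2* lost its call with the median of its chromosome set to 1 (0.718). Genes with a peak within the window were 4 at 100 kb and 0 for peaks of fold enrichment of at least 100. The motif TGANTGACA was found at 1 gene when every annotated transcript start was searched, a setting chosen after seeing the data, as were the background of 20 to 2000 reads and ratios without the added read. No paired analysis was possible because each genotype has 1 library, and for the same reason no replicate could be left out. With under 100 reads in the wild type library, *Sox17*, *Foxa2*, *Hnf4a*, *Pdgfra* and *Afp* have wide intervals.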
